A study of Mus musculus with 10 samples.

Results

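The genes described here encode the isocitrate dehydrogenases and the α-ketoglutarate dehydrogenase complex, the enzymes that make and use α-ketoglutarate (α-KG), together with the enzyme that recovers α-KG from D-2-hydroxyglutarate. They were taken by symbol: Idh1, Idh2, Idh3a, Idh3b, Idh3g, Ogdh, Dlst, Dld and D2hgdh. All 9 were found among the 55367 genes of the deposited table, and all 9 were among the 15126 genes with enough counts to be tested. The RNA was from mouse bone marrow cells (BMMC in the labels). The mice had drunk either regular water, 5 libraries, or water containing 1% α-KG, 5 libraries. Library numbers name samples within a group and pair nothing. By its title, the series deals with myeloproliferative neoplasms. No label gives the genotype, strain or age of the mice, or how long they were treated. Nor is a separate animal named for each library, and p-values therefore cover only the spread among these libraries, which may be technical.

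Isocitrate dehydrogenases convert isocitrate to α-KG. IDH1 works in the cytosol and peroxisomes and IDH2 in mitochondria, both with NADP, whereas IDH3, built from an α, a β and a γ subunit, is the NAD-dependent enzyme of the TCA cycle. The α-ketoglutarate dehydrogenase complex then oxidises α-KG to succinyl-CoA. Mutant forms of IDH1 and IDH2 that make D-2-hydroxyglutarate are well known from myeloid neoplasms.

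Library totals ran from 14291364 to 22490118 counts, and the 9 genes had between 63 and 3895 counts in a library. Pairs of libraries within a group differed beyond counting error (chi-square divided by its degrees of freedom, 33.97 to 447). Marrow was marked by erythroid genes, whose summed level was 20389 to 77955 CPM (counts scaled to library size by TMM, a trimmed mean of ratios) over the 10 libraries, and by neutrophil genes, with 2827 to 5798 CPM. Skeletal muscle genes summed to 2.33 to 12.05 CPM. By mean log2(CPM + 1) over the erythroid markers, the library α-KG 1 stood apart at 7.18, where the other libraries had 8.86 to 9.96. By summed level it did not, with 22362 CPM against 20389 CPM in water 3.

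With α-KG in the water, Idh1 was the 1 member of the 9 that passed the test, and it rose 1.88-fold. None of the other isocitrate dehydrogenase genes, the dehydrogenase complex genes or D2hgdh passed, and their fitted changes lay between 0.83-fold and 1.24-fold. The test was the quasi-likelihood F test of edgeR, adjusted over all genes tested by the Benjamini-Hochberg method with a threshold of 0.05. Of all genes tested, 2.73% were called, 2.39% as higher and 0.344% as lower. At an unadjusted p under 0.05 stood 1 of the 9 genes, where 27.8% of all genes tested did. The median log2 fold change was -0.14 over the 9 genes and 0.02 over all genes tested. Log2 fold changes were above 0 for 3 members and below 0 for 6.

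**Figure D1:**
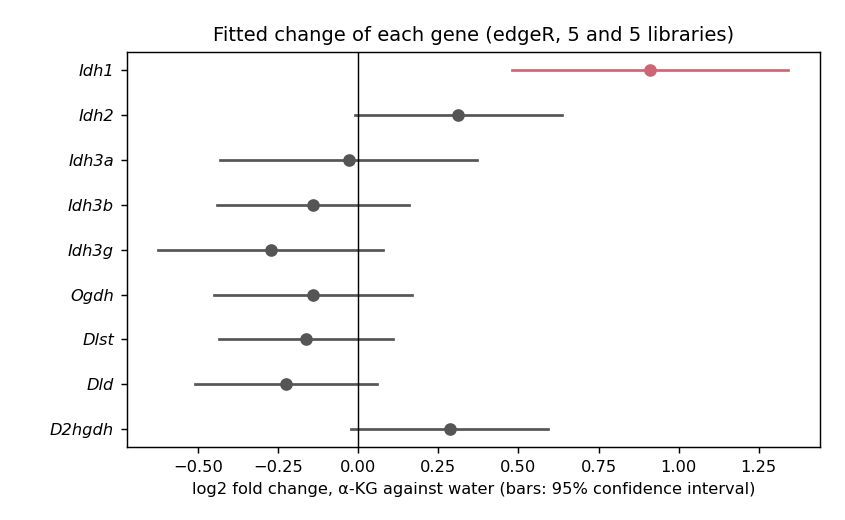
Fitted log2 fold change of each gene, α-KG against water (horizontal axis), with its 95% confidence interval as a bar, from edgeR on 5 and 5 libraries. Red marks an adjusted p under 0.05. Idh1 lies at 0.91 with an interval from 0.48 to 1.34, and the intervals of the other 8 genes include 0.

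Idh1 lies on chromosome 1 (65158616 to 65186500, minus strand, build GRCm38), with 7 annotated transcripts. The reference table gives it a pair of start sites, and both windows are shown because Idh1 is the gene that was called. Each window holds 250 bases before and 50 bases after the start, in the direction of transcription (RefSeq, GRCm38.p6). Capitals mark GGGCGG, the GC box, or its reverse, and CCAAT, the box bound by NF-Y, or its reverse.
Idh1 upstream start, chr1:65186430-65186729, minus strand: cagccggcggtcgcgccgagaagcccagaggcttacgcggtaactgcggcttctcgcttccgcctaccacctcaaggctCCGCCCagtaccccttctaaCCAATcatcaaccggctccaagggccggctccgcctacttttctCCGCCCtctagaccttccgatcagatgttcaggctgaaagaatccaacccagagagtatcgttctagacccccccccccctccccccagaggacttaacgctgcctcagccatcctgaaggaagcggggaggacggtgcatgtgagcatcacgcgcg
Idh1 downstream start, chr1:65179093-65179392, minus strand: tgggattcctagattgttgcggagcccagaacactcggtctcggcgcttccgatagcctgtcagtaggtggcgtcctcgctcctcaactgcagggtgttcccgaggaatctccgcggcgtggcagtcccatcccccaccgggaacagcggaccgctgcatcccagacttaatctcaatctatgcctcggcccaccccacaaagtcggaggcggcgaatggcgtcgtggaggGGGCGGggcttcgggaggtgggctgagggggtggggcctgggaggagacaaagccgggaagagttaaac
The upstream window has GC boxes that begin 171 and 107 bases before the start and a CCAAT box at 151 bases before it. In the downstream window, a GC box begins 19 bases before the start. A GC box occurs in 35.7% and a CCAAT box in 37.4% of the 32851 windows in the table, on either strand. The deposited counts are per gene, so the starts were not told apart.

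In the water libraries Idh1 stood at 7.70, 7.55, 7.11, 5.95 and 4.50 CPM in water 1 to 5. It stood at 11.5, 7.80, 15.3, 14.9 and 12.7 CPM in α-KG 1 to 5. The groups did not overlap, but α-KG 2 lay just above the highest water library. Such a lack of overlap was seen for 1 of the 9 genes and for 5.65% of all genes tested, with α-KG higher in 3.64%. Means were 6.56 ± 1.34 CPM in water and 12.5 ± 3.03 CPM in α-KG (± SD of n = 5). The log2 fold change was 0.91 ± 0.20 (SE, edgeR adjusted p = 0.0364), which is 1.88-fold with a 95% confidence interval from 1.39 to 2.53.

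The call of Idh1 changed with the libraries more than its size did. It was lost, at adjusted p from 0.0585 to 0.117, without water 1, water 2, water 4, water 5, α-KG 1, α-KG 3, α-KG 4 or α-KG 5, with log2 fold changes of 0.81 to 0.97. In those fits the unadjusted edgeR p of Idh1 was 0.00068 to 0.0022, and 0 to 149 of all genes tested were called, against 413 with all libraries. The call of Idh1 held without water 3 (adjusted p = 0.0423) and without α-KG 2 (adjusted p = 0.00514), the library with the lowest Idh1 among those given α-KG. DESeq2 gave a log2 fold change of 0.89 (adjusted p = 0.00405) and limma voom 0.85 (adjusted p = 0.0575).

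**Figure D2:**
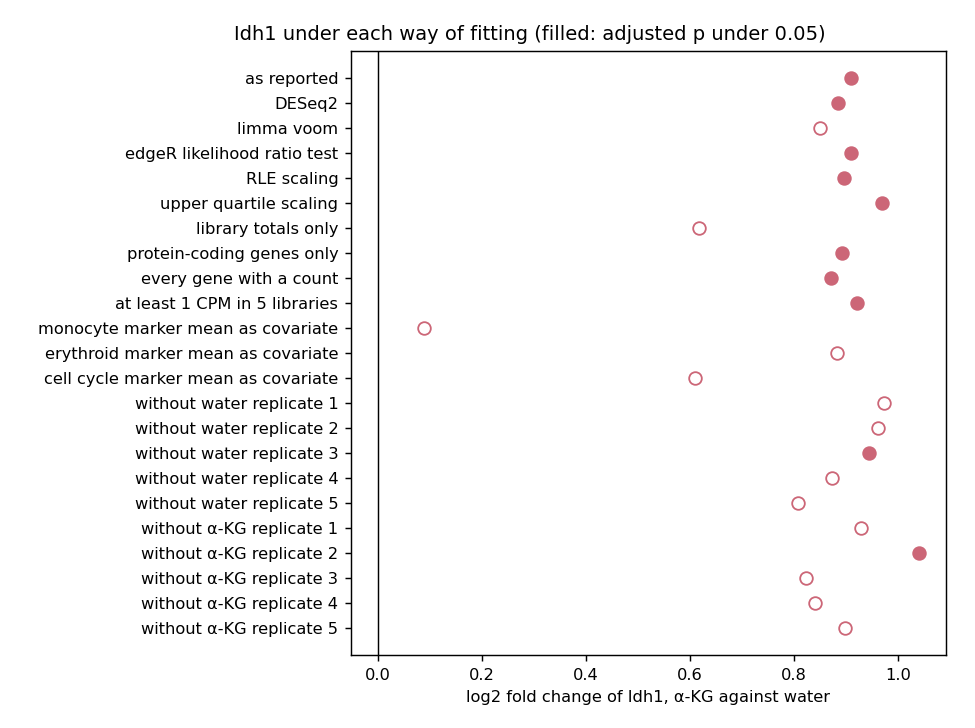
Log2 fold change of Idh1, α-KG against water (horizontal axis), as reported and under each of the 22 other ways of fitting. Filled points have an adjusted p under 0.05. All values lie above 0, from 0.09 with the mean of the monocyte markers as a covariate to 1.04 without α-KG 2.

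Monocyte and macrophage markers, like Idh1, were fitted as higher in α-KG. All 11 monocyte markers were fitted as higher, where 51.7% of all genes tested had a log2 fold change above 0. Of these markers, 8 rose (median log2 fold change 1.13), where 2.39% of all genes tested were called as higher. Their summed level was 685 to 842 CPM in water and 879 to 1555 CPM in α-KG. Of 10 tested macrophage markers, 5 rose, with a median of 1.04, and their summed level was 49.0 to 94.9 CPM in water and 101 to 178 CPM in α-KG. The macrophage receptor gene Marco had no count in any library. T and NK cell markers were also fitted as higher in 9 of 9 cases (median 0.75), and 2 of them rose, with a summed level of 17.2 to 26.9 CPM in water and 22.0 to 42.2 CPM in α-KG. The share of counts from Rn7s, a small RNA of the signal recognition particle, was 7.56 to 24.2% in water and 24.0 to 31.0% in α-KG. Protein-coding genes held 42.2 to 72.2% of counts in water and 37.9 to 50.1% in α-KG. The part of the T and NK cells and of these shares in the level of Idh1 was not tested. In α-KG 2, where Idh1 was lowest among the α-KG libraries, the mean log2(CPM + 1) of the monocyte markers was also the lowest of that group, at 5.02 against 5.56 to 6.003. With that mean as a covariate, the log2 fold change of Idh1 was 0.09 ± 0.33 (SE, edgeR adjusted p = 1.00). With the erythroid mean it was 0.88 ± 0.22 (adjusted p = 0.0737) and with the cell cycle mean 0.61 ± 0.27 (adjusted p = 0.916). The monocyte mean itself did not overlap between the groups, since the water libraries lay at 4.51 to 4.98. Water 1, with the highest Idh1 of the water group (7.70 CPM), had the lowest monocyte mean, 4.51. A relation of Idh1 to the macrophage markers was not tested. After removal of the group means, Idh1 and the monocyte mean had a Pearson r of 0.72 over the 10 libraries (exact permutation p = 0.0423, adjusted p = 0.190 over 27 relations) and a Spearman rho of 0.58 (exact permutation p = 0.118, adjusted p = 0.653). Without α-KG 2 and α-KG 4, the libraries farthest from the median of the monocyte mean, r was 0.33. The size of r therefore depended on those libraries, and the narrower range can itself lower r. In bulk RNA, a change in the number of cells of a type and a change of RNA per cell cannot be told apart.

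Idh2, which encodes the mitochondrial NADP-dependent enzyme, lies on chromosome 7 (80094846 to 80115392, minus strand). It stood at 13.6, 10.3, 15.3, 10.4 and 15.2 CPM in water 1 to 5 and at 18.7, 14.7, 17.6, 15.7 and 13.6 CPM in α-KG 1 to 5. The groups overlapped, with 3 α-KG libraries above the highest water library and all 5 above the water mean. The fitted change was 1.24-fold with a 95% confidence interval from 0.992 to 1.55 (log2 0.31 ± 0.15 SE, edgeR adjusted p = 0.191). Its sign was the same under all 22 alternatives, with adjusted p from 0.135 to 1.00. Per kilobase of merged exons, the ratio of Idh1 to Idh2 within a library was 0.492 ± 0.149 in water and 0.729 ± 0.182 in α-KG (± SD of n = 5). This ratio ran from 0.278 to 0.683 in water and from 0.495 to 0.889 in α-KG, so the groups overlapped.

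The subunit genes of IDH3 showed no called change. Idh3a, for the catalytic α subunit (chromosome 9, 54586334 to 54604661), stood at 13.2, 7.25, 9.95, 8.86 and 14.01 CPM in water 1 to 5 and at 9.57, 10.1, 10.4, 13.2 and 8.995 CPM in α-KG 1 to 5. All its α-KG values fell within the range of the water libraries. The fitted change was 0.98-fold, with a 95% confidence interval from 0.742 to 1.29 (edgeR adjusted p = 0.929).

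Idh3b, for the β subunit (chromosome 2, 130279309 to 130284547), stood at 24.5, 20.2, 22.3, 21.9 and 31.4 CPM in water 1 to 5. Its values in α-KG 1 to 5 were 21.0, 21.6, 19.7, 26.7 and 20.1 CPM. The highest library of each group, water 5 and α-KG 4, stood off from the rest of its group. Idh3b changed by a fitted 0.906-fold (95% confidence interval 0.736 to 1.12, edgeR adjusted p = 0.508). Its exons share 5 bases with Nop56 on the opposite strand, and whether counting used the strand is not stated in the labels.

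Idh3g, for the γ subunit (X chromosome, 73778963 to 73786897), stood at 35.4, 26.6, 21.4, 30.8 and 33.5 CPM in water 1 to 5. In α-KG 1 to 5 it stood at 18.005, 29.0, 23.3, 27.4 and 24.7 CPM. The groups overlapped, and all 5 α-KG values lay below the water mean of 29.5 CPM. The fitted change was 0.828-fold (95% confidence interval 0.649 to 1.06, edgeR adjusted p = 0.280).

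**Figure D3:**
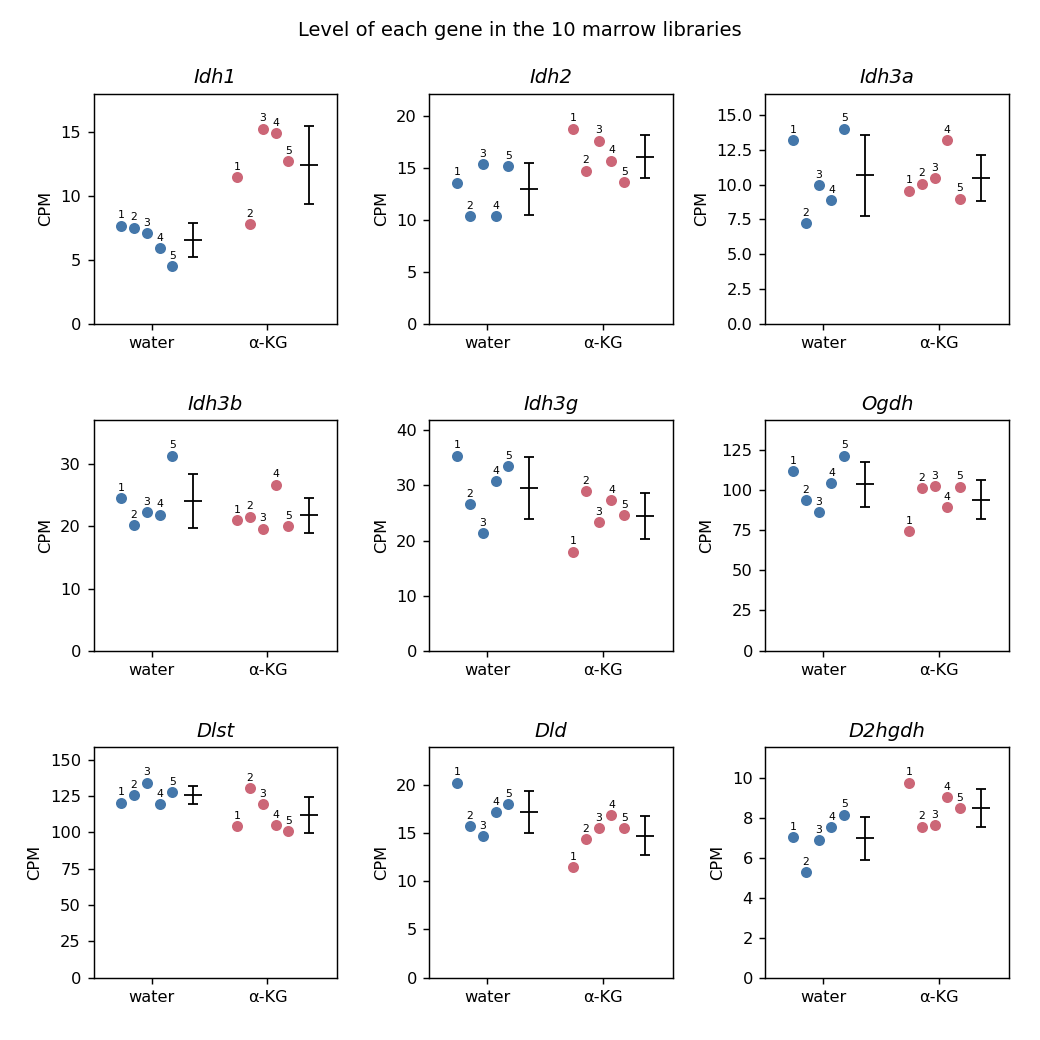
Level of each gene in CPM (vertical axis, from 0) in the 5 water and 5 α-KG libraries. Points are libraries with their numbers, and the bars beside them give the mean and SD of the group. For Idh1 all α-KG points lie above all water points, and for the other 8 genes the groups overlap.

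Ogdh encodes E1 of the α-ketoglutarate dehydrogenase complex, the subunit that decarboxylates α-KG (chromosome 11, 6291633 to 6356642). It stood at 112, 93.8, 86.4, 104 and 121 CPM in water 1 to 5 and at 74.5, 101, 102, 89.2 and 102 CPM in α-KG 1 to 5. No α-KG library was above the water mean of 103 CPM, but only α-KG 1 was below every water library. The fitted change was 0.906-fold (95% confidence interval 0.731 to 1.12, edgeR adjusted p = 0.523).

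Dlst encodes E2, the succinyltransferase that carries the lipoyl group (chromosome 12, 85110833 to 85134845). Its values were 120, 126, 134, 119 and 128 CPM in water 1 to 5 and 104, 130, 119, 105 and 101 CPM in α-KG 1 to 5. In water it varied least of the 9 genes, with a coefficient of variation of 4.82%, against 11.1% in α-KG. There were 3 α-KG libraries below every water library, and the fitted change was 0.893-fold (95% confidence interval 0.739 to 1.08, edgeR adjusted p = 0.398).

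Dld encodes E3, the dihydrolipoamide dehydrogenase that this complex shares with other α-keto acid dehydrogenases and the glycine cleavage system (chromosome 12, 31331277 to 31351453). It stood at 20.2, 15.7, 14.6, 17.2 and 18.02 CPM in water 1 to 5 and at 11.5, 14.3, 15.5, 16.8 and 15.5 CPM in α-KG 1 to 5. All 5 α-KG values lay below the water mean of 17.1 CPM, and the groups overlapped. The fitted change was 0.856-fold (95% confidence interval 0.703 to 1.04, edgeR adjusted p = 0.272).

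D2hgdh encodes the mitochondrial enzyme that oxidises D-2-hydroxyglutarate back to α-KG (chromosome 1, 93824909 to 93852348). It stood at 7.02, 5.26, 6.89, 7.55 and 8.15 CPM in water 1 to 5 and at 9.76, 7.55, 7.62, 9.03 and 8.49 CPM in α-KG 1 to 5. All α-KG values lay above the water mean of 6.97 CPM, and 3 lay above every water library. D2hgdh changed by a fitted 1.22-fold (95% confidence interval 0.985 to 1.51, edgeR adjusted p = 0.205), with the same sign under all 22 alternatives. It was the 1 member whose estimated counts were not whole numbers in any library.

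Per length, the genes of the dehydrogenase complex and of IDH3 were not expressed evenly. In water, Ogdh had the highest level at 18.96 ± 2.54 CPM per kb of merged exons, followed by Dlst at 13.1 ± 0.633 and Idh3g at 10.9 ± 2.08 (SD, n = 5). Idh3b stood at 7.03 ± 1.28, Idh2 at 5.005 ± 0.958, Dld at 4.65 ± 0.586, Idh1 at 2.37 ± 0.483, Idh3a at 2.10 ± 0.567 and D2hgdh at 1.63 ± 0.252 CPM per kb. Within the water group, the ranges of neighbours in this order overlapped except between Ogdh and Dlst and between Dld and Idh1. In α-KG the order was the same apart from Idh1, which at 4.49 ± 1.09 CPM per kb lay above Dld at 3.99 ± 0.547, with ranges that overlapped. Within IDH3, Idh3g was at 1.57 ± 0.271 times and Idh3a at 0.296 ± 0.0446 times the level of Idh3b per kb in water. In α-KG these ratios were 1.43 ± 0.240 and 0.324 ± 0.0229. With the mean transcript length in place of the merged exons, Dlst became the highest at 96.9 CPM per kb and Ogdh stood at 39.1, since merged exons of Dlst span 9.56 kb and its mean transcript 1.29 kb. Under that length, the order of Idh2 and Dld and that of Idh3a and D2hgdh also turned.

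**Figure D4:**
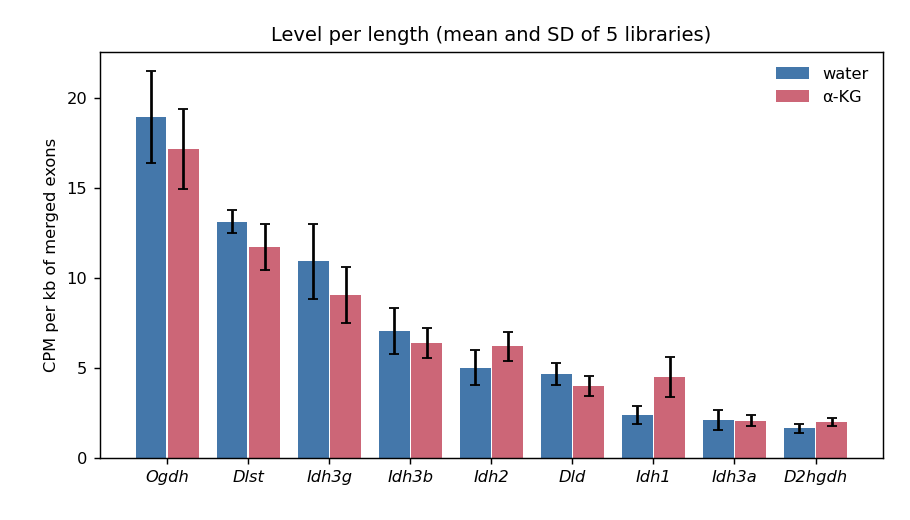
Level per length in CPM per kb of merged exons (vertical axis, from 0), in the order of the water means. Bars are means of 5 libraries and error bars their SD, blue for water and red for α-KG. Ogdh and Dlst lie highest and D2hgdh lowest in both groups.

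Within groups, Idh3g, Ogdh and Dld shared their lowest libraries. The lowest was α-KG 1 in the α-KG group and water 3 in the water group for each of the 3 genes. Dlst, for E2 of the complex, did not share them and was lowest in α-KG 5 and water 4. With group means removed, over the 10 libraries Pearson's r was 0.86 for Idh3g and Dld (exact permutation p = 0.00479, adjusted p = 0.0863 over the 36 pairs of members) and Spearman's rho 0.67 (exact permutation p = 0.0476, adjusted p = 0.568). For Idh3g and Ogdh r was 0.83 (exact permutation p = 0.00903, adjusted p = 0.108) and rho 0.59 (exact permutation p = 0.104, adjusted p = 0.568). For Ogdh and Dld r was 0.77 (exact permutation p = 0.0201, adjusted p = 0.181) and rho 0.65 (exact permutation p = 0.0661, adjusted p = 0.568). Without water 3 and α-KG 1, these r were 0.56, 0.45 and 0.31, so the size of r depended on those libraries. They were the 2 farthest from the median, and leaving them out narrows the range, which can itself lower r. Idh3a and Idh3b had the highest r of the 36 pairs, 0.87 (exact permutation p = 0.00146, adjusted p = 0.0525), with rho 0.79 (exact permutation p = 0.0231, adjusted p = 0.568) and r = 0.79 without water 2 and water 5. Dlst had r of 0.15 with Ogdh, -0.16 with Dld and 0.05 with Idh3g (exact permutation p = 0.730, 0.731 and 0.910). None of the 36 pairs passed after adjustment, against 4 at an unadjusted p under 0.05. Levels in a library share its scaling and composition.

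The libraries α-KG 1 and water 3 were also those with the lowest erythroid marker mean of their groups, at 7.18 and 8.86 on the log2(CPM + 1) scale. α-KG 1 also had the highest summed level of B cell markers, 467 CPM against 84.8 to 206 CPM in the other libraries, and the lowest cell cycle mean, 5.61 against 5.97 to 7.47. With the erythroid mean, Idh3g had an r of 0.76 (exact permutation p = 0.0193, adjusted p = 0.168 over 27 relations). Its rho was 0.41 (exact permutation p = 0.247, adjusted p = 0.674), and its r was 0.03 without water 3 and α-KG 1. Ogdh and Dld had r of 0.73 and 0.69 with the erythroid mean (exact permutation p = 0.0311 and 0.0638, adjusted p = 0.168 and 0.246). Their rho were 0.28 and 0.35 (adjusted p = 0.716 for both), and their r were -0.06 and -0.30 without water 3 and α-KG 1. With the mean of the cell cycle markers, Idh3g had r = 0.84 (exact permutation p = 0.000486, adjusted p = 0.0131) and rho 0.73 (exact permutation p = 0.00979, adjusted p = 0.132), and r = 0.74 without α-KG 1 and α-KG 2. Idh2 went the other way from the erythroid mean, with r = -0.70 (exact permutation p = 0.00285, adjusted p = 0.0384) and rho = -0.85 (exact permutation p = 0.000417, adjusted p = 0.0113), and r = -0.65 without water 3 and α-KG 1. These 27 relations were chosen after the data had been seen. The 12 cell cycle markers were all fitted as lower (median log2 -0.81), and edgeR called 0 of them, against 12 at an unadjusted p under 0.05. Erythroid markers had a median of -0.73, with 8 of 11 below 0 and 0 called, against 1 at an unadjusted p under 0.05. Of all genes tested, edgeR called 2.73%, and 27.8% stood at an unadjusted p under 0.05. With the erythroid mean as a covariate, the log2 fold changes of Idh3g, Ogdh and Dld were -0.08 ± 0.14, -0.02 ± 0.12 and -0.11 ± 0.13 (SE). As reported they were -0.27 ± 0.16, -0.14 ± 0.14 and -0.22 ± 0.13. With the cell cycle mean as a covariate they were 0.17 ± 0.16, 0.11 ± 0.16 and 0.0023 ± 0.17. Idh2 was at 0.16 ± 0.14 with the erythroid mean and 0.08 ± 0.19 with the cell cycle mean as a covariate, against 0.31 ± 0.15 as reported. None of these changes was called in any of these fits.

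**Figure D5:**
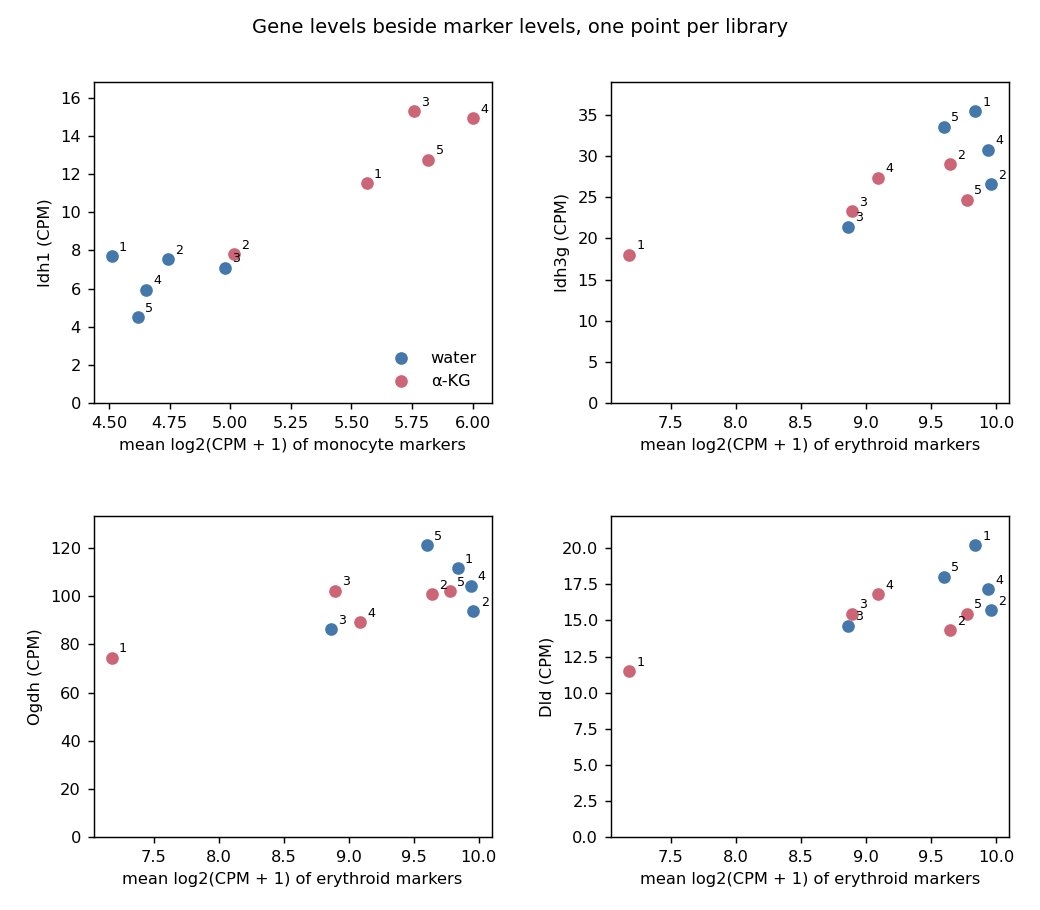
Level of Idh1 beside the mean of the monocyte markers, and of Idh3g, Ogdh and Dld beside the mean of the erythroid markers, with 1 point per library (blue water, red α-KG, numbers name libraries). Horizontal axes are mean log2(CPM + 1) and vertical axes CPM from 0. α-KG 2 lies beside the water libraries in the Idh1 panel, and α-KG 1 lies lowest on both axes in the other panels.

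The start windows of Idh3g, Ogdh and Dld are shown because these genes shared their lowest libraries, although none of their correlations passed after adjustment. Capitals mark TGACGT, the core of the cyclic AMP response element, or its reverse ACGTCA. Of 11 motifs searched, it is the 1 that was found in these 3 genes and in none of the other 5 members with a window.
Idh3g, chrX:73786848-73787147, minus strand: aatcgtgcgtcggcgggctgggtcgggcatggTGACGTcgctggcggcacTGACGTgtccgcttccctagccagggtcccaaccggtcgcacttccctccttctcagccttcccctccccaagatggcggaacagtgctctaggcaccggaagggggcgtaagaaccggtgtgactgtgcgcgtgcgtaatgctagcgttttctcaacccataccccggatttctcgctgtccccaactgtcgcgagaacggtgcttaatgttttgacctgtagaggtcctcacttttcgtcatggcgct
Ogdh first start, chr11:6291347-6291646, plus strand: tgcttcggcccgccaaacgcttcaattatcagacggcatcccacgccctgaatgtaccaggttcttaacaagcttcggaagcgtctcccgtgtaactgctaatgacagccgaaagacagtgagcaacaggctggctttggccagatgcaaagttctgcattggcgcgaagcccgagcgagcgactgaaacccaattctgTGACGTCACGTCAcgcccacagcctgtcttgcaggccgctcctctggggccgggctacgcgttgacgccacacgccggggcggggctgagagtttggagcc
Dld, chr12:31351422-31351721, minus strand: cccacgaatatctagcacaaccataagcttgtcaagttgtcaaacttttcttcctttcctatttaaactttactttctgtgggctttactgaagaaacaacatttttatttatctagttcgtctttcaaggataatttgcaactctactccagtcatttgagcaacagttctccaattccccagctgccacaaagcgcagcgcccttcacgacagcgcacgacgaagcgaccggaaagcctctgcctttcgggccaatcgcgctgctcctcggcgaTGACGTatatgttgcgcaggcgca
In Idh3g the core begins 218 and 200 bases before the start, and the first copy shares bases with a match to TGACNNNGC, the antioxidant response element. Ogdh has 6 windows, of which 3 overlapping ones hold the core and the other 3 do not. The first Ogdh window, shown here, has overlapping copies on both strands that begin 51, 49 and 44 bases before the start, and they include the full palindrome TGACGTCA. In Dld the core lies 26 bases after the start. Over all 32851 windows, 7.51% hold TGACGT on either strand and 1.79% hold TGACGTCA. The motif was singled out after the pattern of these genes was known, and a match is letters in a window, not a bound site. Windows were found for 8 of the 9 members, 14 windows in all, and not for Idh3a.

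Genes whose levels followed a member most closely were taken from 6772 well-expressed protein-coding genes, by Pearson's r over the 10 libraries with group means removed. For Idh1 they were Tlr13, a receptor for bacterial RNA (r = 0.98), Capza2, a subunit of the actin capping protein (r = 0.97), and Naip2, a sensor of bacterial secretion proteins (r = 0.97). None of these passed the test between the groups, with log2 fold changes of 0.55, 0.33 and 0.43 (edgeR adjusted p = 0.137, 0.144 and 0.111). For Ogdh the closest was Mdh2, the mitochondrial malate dehydrogenase of the TCA cycle (r = 0.97), and for Dld it was Uqcrc2, a core subunit of respiratory complex III (r = 0.98). Over all members the 3 closest genes had r from 0.89 to 0.98. These are the highest of 6772 values for each member and are given as a description; the libraries share depth and composition.

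Other genes of the pathway showed no called change. Of 55 genes in 6 lists, 43 were tested and 0 passed with edgeR, limma voom or DESeq2 (which fitted all 55), against 10 of 43 at an unadjusted p under 0.05 in edgeR. Of all genes tested, edgeR called 2.73%, and 27.8% stood at an unadjusted p under 0.05. The median log2 fold change of the 43 genes was 0.05, with 28 above 0 and 15 below. Of the rest of the TCA cycle, 15 of 15 were tested, with a median log2 fold change of 0.02. Sdhaf1, for an assembly factor of succinate dehydrogenase, had a log2 fold change of 0.46 ± 0.24 (SE, adjusted p = 0.224).

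Of the relatives and accessory genes of the α-ketoglutarate dehydrogenase complex, 4 of 8 were tested, with a median of -0.34. Lias, for the enzyme that makes the lipoyl group of Dlst, stood at 12.2 ± 1.02 CPM in water and 9.19 ± 1.89 in α-KG (± SD of n = 5; log2 -0.41 ± 0.14 SE, edgeR adjusted p = 0.106). It passed without α-KG 2 (adjusted p = 0.0209), a fit in which 17.4% of all genes tested were called, against 2.73% with all libraries. Mrps36, which encodes a small protein that holds E3 in the complex, was at -0.65 ± 0.29 (SE, adjusted p = 0.162). Of the other complexes that use Dld, 9 of 10 genes were tested, with a median of 0.05. In edgeR, 5 of the 9 stood at an unadjusted p under 0.05, where 27.8% of all genes tested did. Pdhx, for the protein that binds E3 in the pyruvate dehydrogenase complex, was at -0.42 ± 0.15, and Bckdha, for E1 of the branched-chain complex, at 0.35 ± 0.13 (SE, adjusted p = 0.116 for both). Pdhb, for E1 of pyruvate dehydrogenase, passed in that same fit without α-KG 2, with a log2 fold change of -0.36 (adjusted p = 0.0432).

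Genes that make or remove 2-hydroxyglutarate were tested in 4 of 5 cases, with a median log2 fold change of 0.08. Ldhb, a lactate dehydrogenase subunit, was at 0.51 ± 0.22 (SE, edgeR adjusted p = 0.160). Of other enzymes that make NADPH, the product that IDH1 and IDH2 also give, 7 of 11 were tested, with a median of 0.14. Nnt, the mitochondrial transhydrogenase, stood at 6.46 ± 0.478 CPM in water and 8.57 ± 1.35 in α-KG (± SD of n = 5). Its log2 fold change was 0.40 ± 0.13 (SE, edgeR adjusted p = 0.0954). Its groups did not overlap, as was so, with α-KG higher, for 3.64% of all genes tested. Pgd, of the pentose phosphate pathway, was at 0.30 ± 0.17 (SE, adjusted p = 0.273). Of the carriers of α-KG and citrate, 4 of 6 were tested, with a median of 0.19. Slc25a11, the exchanger of α-KG and malate, was at 0.28 ± 0.11 and Slc25a21, the carrier of oxodicarboxylates, at -0.67 ± 0.36 (SE, adjusted p = 0.144 and 0.245).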

How the data were processed

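Per the labels' protocols, RNA was purified on columns and treated with DNase, ribosomal RNA was depleted by RNase H, and sequencing was on an Illumina NovaSeq. The submitters' processing notes name bcl2fastq, DRAGEN and GRCm38. No source used here gives the quantifier, annotation release or strandedness. The deposited values are expected counts per gene, unscaled, and 10.3% are not whole. They were rounded here.

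Genes were kept by filterByExpr (minimum count 10, minimum total 15) and tested with edgeR 4.0.16 in R 4.3.3 (TMM scaling, robust quasi-likelihood F test, two-sided, Benjamini-Hochberg). The fit of all 10 libraries had a common biological coefficient of variation of 0.254. Only the edgeR fit was tried on simulated counts, drawn for each gene independently and so without shifts shared between genes. CPM are TMM-scaled; standard errors were obtained as |log2 fold change| / √F. Alternatives used limma 3.58.1, DESeq2 1.42.0, other scalings, filters, marker means as covariates, and each library left out.

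Correlations used log2 CPM (prior count 2) less the group mean, with exact two-sided permutations within groups. Positions and exon lengths came from GENCODE M21 (GRCm38). Named pathway genes are the 2 with the smallest p of each list, and for like genes the 3 with the highest r were taken. Of the genes this rule names, 2 are not reported here. Pdhb and Mthfd2 were named after their values were seen. Members and lists were chosen with earlier results of these data known.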

Additional observations from a re-analysis of the deposited data

Results flagged for a closer look

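Idh3b stood at 26.7 CPM in α-KG 4 and at 19.7 to 21.6 CPM in the other α-KG libraries, a gap to its neighbours wider than Dixon's critical value for 5 samples (0.71). This was the 1 such gap among 18 gene and group combinations, and chance flags about 1 in 20. Without α-KG 4, the log2 fold change of Idh3b was -0.22, against -0.14 with it.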

How the results depend on the processing

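The count of members called, 1 as reported, was 0 with limma voom, with library totals only, or with the monocyte, erythroid or cell cycle marker mean as covariate, and 0 to 1 with a library left out, while 2, 2, 0, 1 and 1 members were at an unadjusted p under 0.05 in the first 5 of these fits. The count of pathway genes called, 0 as reported, was 2 with library totals only (Mthfd2 and Slc25a21, both lower) and 0 to 2 with a library left out. The count of all genes called, 413 as reported (361 higher and 52 lower), was 1657 with DESeq2 (969 and 688), 1568 with the likelihood ratio test (1083 and 485), 267 with limma voom, 1159 with library totals only (117 and 1042), 88 with the erythroid mean, 0 with the monocyte mean (160 at an unadjusted p under 0.05) and 0 with the cell cycle mean (816). It ran from 0 to 2683 (without α-KG 2) with a library left out, with 0 without water 1, water 2, water 4 or α-KG 4 (3232 to 3672 at an unadjusted p under 0.05). Library totals only moved the median of all genes from 0.02 to -0.22. Relative to that median, Idh1 stood at 0.84 there, against 0.89 as reported.

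Signs turned in fits where no change was called. Idh3a went from -0.03 to 0.028 with upper quartile scaling, where the median of all genes moved to 0.08 (relative to it, Idh3a was at -0.05 in both fits), and to 0.13 with the cell cycle mean, and ran from -0.14 to 0.082 with a library left out, above 0 without water 1 (0.063), water 5 (0.082) or α-KG 5 (0.016). With the cell cycle mean, Idh3b, Idh3g, Ogdh and Dld stood at 0.0071, 0.17, 0.11 and 0.0023. With the monocyte mean, Idh3g, Ogdh and Dlst stood at 0.084, 0.057 and 0.016. Among the 36 correlations, 1 pair of members passed with scaling on protein-coding genes, against 0 as reported. No paired analysis was possible because no label pairs the libraries of the groups. Among the 8 uncalled members, the 95% confidence intervals reach from 0.649-fold (Idh3g) to 1.55-fold (Idh2), which is how far these libraries limit their changes.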
